A study of Mus musculus with 7 samples.

Results

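The genes described here are 10 markers of radial glia-like stem cells, namely Fabp7, Cd24a, Cd9, Tnfrsf19, Lpar1, Prom1, Hopx, Nr2e1, Msi1 and Msi2. They were taken by name, and all 10 were found among the 50600 entries of the bulk count table and among the 15536 genes of the single-cell table. All are protein-coding genes, and on GRCm38 they lie on chromosomes 4 (Lpar1, 58435255 to 58553898), 5 (Hopx, 77086988 to 77115121, Prom1, 43993620 to 44102032, and Msi1, 115429599 to 115455698), 6 (Cd9, 125460266 to 125494791), 10 (Fabp7, 57784881 to 57788450, Cd24a, 43578284 to 43584265, and Nr2e1, 42561963 to 42583632), 11 (Msi2, 88339382 to 88718513) and 14 (Tnfrsf19, 60963875 to 61046490). The samples came from adult C57Bl6J mice and fell into 3 kinds. The first was 4 bulk libraries of primary neural stem and progenitor cell (NSPC) cultures grown from the dentate gyrus (DG) of mice 6 to 8 weeks old, cultures F1 and F2 from females and M1 and M2 from males, at passages 6 to 15, kept adherent on poly-d-lysine and laminin with B27, 20 ng/ml EGF and 20 ng/ml FGF2. The second was 2 bulk libraries of whole DG, F1 from a female and M2 from a male aged 7 to 9 weeks, and the third was 1 droplet single-cell library of a mix of 3 such cultures, 2 from females and 1 from a male, of mice 6 to 9 weeks old. The mice carried no allele and had no treatment named in the labels.

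Radial glia-like cells are the stem cells of the adult dentate gyrus. Their bodies lie in the subgranular zone, they send a process through the granule cell layer, most of them are quiescent, and when activated they give rise to intermediate progenitors, neuroblasts and new granule neurons. Their markers are not confined to them: mature astrocytes share several, and proliferating progenitors and neuroblasts share others. In culture, EGF and FGF2 keep the cells dividing.

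Promoter sequence is shown for Fabp7 and Cd9, which were higher in NSPC cultures than in whole DG, for Hopx, which was lower, and for Nr2e1, which did not pass the test, so that members with different values can be read side by side. Each is the 250 bases before a RefSeq transcript start on GRCm38.p6, 5′ to 3′ on the gene's strand, at chr10:57784673-57784922 on the plus strand for Fabp7, and on the minus strand at chr6:125494761-125495010 for Cd9, chr5:77115124-77115373 for Hopx (the first of 2 starts) and chr10:42583591-42583840 for Nr2e1. Capitals mark letters found for any of 5 motifs on either strand.
Fabp7: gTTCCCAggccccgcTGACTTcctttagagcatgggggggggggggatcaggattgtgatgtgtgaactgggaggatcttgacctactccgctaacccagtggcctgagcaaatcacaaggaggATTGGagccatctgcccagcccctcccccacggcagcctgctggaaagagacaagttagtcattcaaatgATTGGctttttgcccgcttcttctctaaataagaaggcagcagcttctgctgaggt
Cd9: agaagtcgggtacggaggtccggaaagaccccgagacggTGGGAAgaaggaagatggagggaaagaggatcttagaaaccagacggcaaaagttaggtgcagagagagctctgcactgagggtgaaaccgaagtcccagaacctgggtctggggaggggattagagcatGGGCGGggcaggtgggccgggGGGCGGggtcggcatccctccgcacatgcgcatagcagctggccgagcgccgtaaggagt
Hopx: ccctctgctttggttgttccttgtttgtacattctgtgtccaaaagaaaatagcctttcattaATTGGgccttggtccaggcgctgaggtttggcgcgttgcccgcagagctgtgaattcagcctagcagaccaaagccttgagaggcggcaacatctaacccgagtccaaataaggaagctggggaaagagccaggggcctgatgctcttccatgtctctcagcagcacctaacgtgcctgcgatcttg
Nr2e1: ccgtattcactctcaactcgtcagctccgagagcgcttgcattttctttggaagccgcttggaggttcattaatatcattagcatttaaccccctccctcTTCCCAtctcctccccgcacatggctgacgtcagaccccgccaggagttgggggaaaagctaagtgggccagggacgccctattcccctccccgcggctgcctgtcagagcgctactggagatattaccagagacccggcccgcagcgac

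The motifs were an Rbpj motif (TGGGAA, in 21.6% of all 32851 RefSeq promoter windows of this length), an Nr2e1 half-site (AAGTCA, 13.1%), a Sox motif (ACAAAG, 16.5%), the CCAAT box (CCAAT, 33.8%) and the GC box (GGGCGG, 32.7%). The Fabp7 window held 1 Rbpj match, 1 Nr2e1 half-site match and 2 CCAAT matches. The Cd9 window held 1 Rbpj match and 2 GC boxes, the Hopx window 1 CCAAT match and the Nr2e1 window 1 Rbpj match, and no matches overlapped in these 4 windows. A match is a run of letters and not a measured site. RefSeq windows were found for 8 of the 10 members, and Msi1 and Cd24a were not among them.

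Total counts were 9917697 to 11747408 in the NSPC libraries and 16676618 to 17351636 in the whole DG libraries. Culture libraries were made with SMART-Seq HT and whole DG libraries with NEBNext Ultra II Directional, so library kit and sample kind cannot be told apart. Whole DG is a mixed tissue, and in bulk libraries fewer cells of a type and less RNA per cell cannot be told apart. Markers of other cells moved with the groups: all 6 neuron markers were lower in NSPC cultures, with a summed level of 34.3 to 44.7 CPM (counts per 1000000 counts of a library) in NSPC libraries and 8332 to 8841 CPM in whole DG. All 6 microglia markers (9.27 to 15.998 CPM summed in NSPC cultures against 217 to 224 CPM in whole DG), all 6 endothelial markers (1.07 to 7.85 against 127 to 133 CPM) and all 6 mural and fibroblast markers (1.17 to 3.25 against 70.5 to 94.2 CPM) were also lower, with C1qa, Aif1 and Cldn5 at 0 counts in every culture. Of 6 ependymal and choroid plexus markers 4 were tested, with 1 higher and 2 lower (11.7 to 18.02 CPM summed in NSPC cultures against 46.5 to 46.8 CPM in whole DG, with Tmem212 at 0 in all 6 libraries). Of 9 oligodendrocyte markers 8 were lower (93.6 to 144 CPM summed in NSPC cultures against 1296 to 1591 CPM in whole DG, with Ermn at 0 in the cultures), of 8 astrocyte markers 4 were lower and 1 higher (361 to 858 against 2700 to 3141 CPM), and of 6 neuroblast markers 4 were lower and 1 higher (198 to 243 against 271 to 311 CPM). Among 6 oligodendrocyte precursor markers 2 were higher and 3 lower (1738 to 3535 CPM summed in NSPC cultures against 229 to 253 CPM in whole DG). Most of that sum was Olig1, at 2456 ± 685 CPM in NSPC cultures against 74.0 CPM in whole DG. Cspg4 was the other higher marker (121 CPM in NSPC cultures, 18.6 CPM in whole DG, log2 2.70, edgeR adjusted p = 0.000829). Of the 3 lower ones, Sox10 was at 0 in every culture and Pdgfra averaged 2.69 ± 1.76 CPM in NSPC cultures against 53.6 CPM in whole DG. All 12 cell division genes were higher in NSPC cultures (1924 to 3221 CPM summed) than in whole DG, where the lower library was at 97.9 CPM. The part of these differences in the members' values was not tested.

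The comparison of NSPC cultures with whole DG sets the level of each marker in culture beside its level in a mixed tissue. It does not measure gain or loss of a marker by stem cells put in culture. Here rose and fell mean higher and lower in NSPC cultures than in whole DG. The markers did not move as a block. Fabp7, Cd24a, Cd9 and Tnfrsf19 rose in NSPC cultures, Msi1, Prom1, Hopx, Lpar1 and Msi2 fell, and Nr2e1 did not pass the test. The 4 higher and 5 lower members, 9 of 10 tested, stand beside 77.3% of all 18088 tested genes called in either direction, 35.6% higher and 41.7% lower (edgeR quasi-likelihood test, Benjamini-Hochberg adjusted p under 0.05), so the count is not a result about these genes in particular. The median log2 difference was -0.26 over the members and -0.13 over all tested genes. The ranges of the groups did not overlap for 9 of 10 members, against 83.6% of tested genes. Tested against a fold of 2 (edgeR glmTreat), 7 members were called, beside 52.2% of tested genes.

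**Figure D1:**
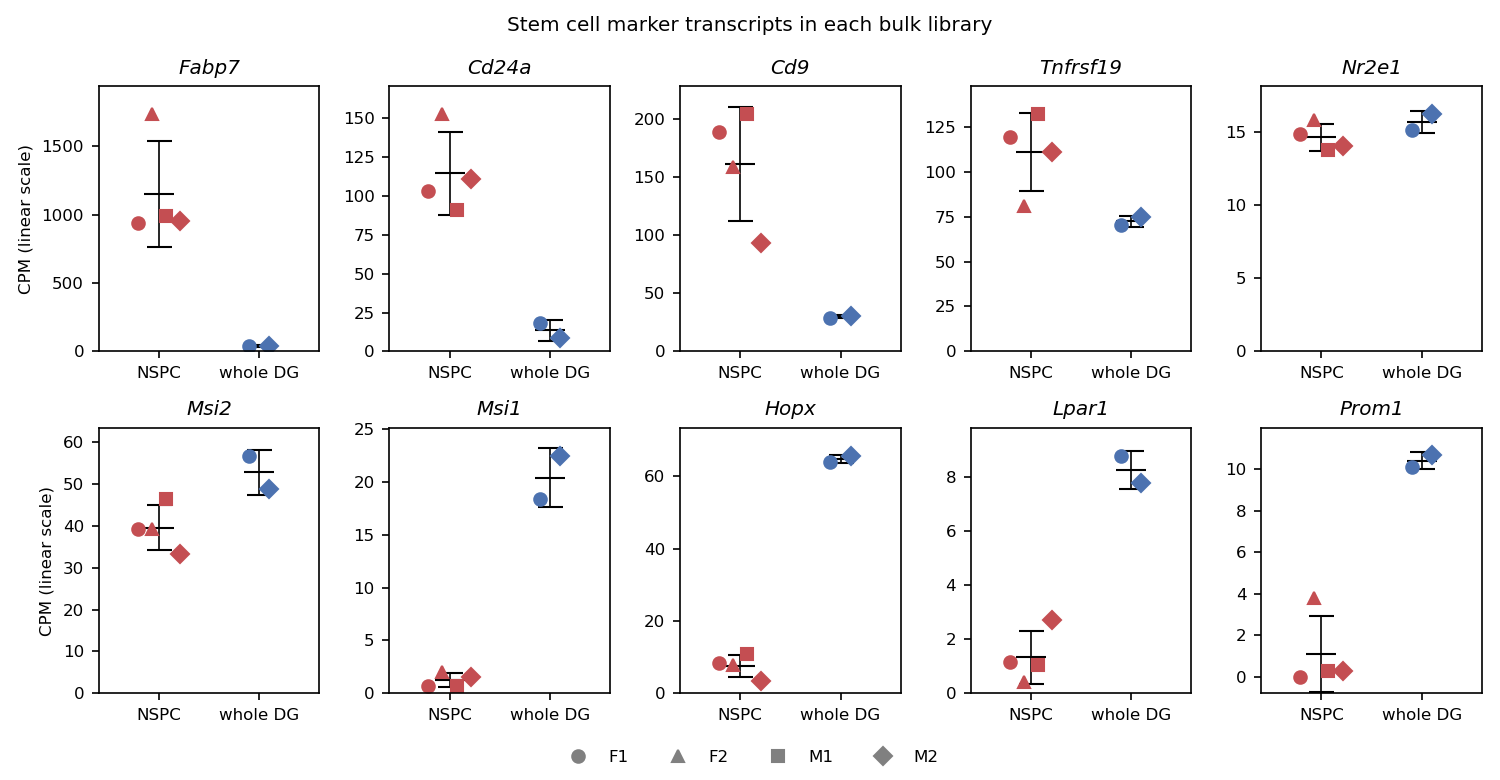
Level of each marker in every bulk library, in CPM on linear axes that start near 0, with NSPC cultures (red, n = 4) left of whole DG (blue, n = 2). Symbols give the library, and bars the mean and SD. Fabp7, Cd24a, Cd9 and Tnfrsf19 were higher in all 4 cultures than in whole DG, and Nr2e1 alone had overlapping groups.

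Fabp7 encodes brain lipid-binding protein, a carrier of fatty acids in radial glia and progenitors, and it was the most abundant marker in culture. It was at 941, 1735, 991 and 952 CPM in NSPC cultures F1, F2, M1 and M2, against 36.2 and 43.1 CPM in whole DG F1 and M2. All cultures lay far above both tissue libraries, and F2 lay far above the other cultures. The mean was 1154 ± 387 CPM in NSPC cultures (SD, n = 4) and 39.6 ± 4.93 CPM in whole DG (SD, n = 2). On the log2 scale the difference came to 4.86 (SE 0.35, edgeR adjusted p = 5.21e-06), or 29.1-fold. Fabp7 overlaps no annotated gene. Of the other fatty acid binding proteins, Fabp5, an epidermal-type form also found in progenitors, rose (411 CPM in NSPC cultures, 71.8 CPM in whole DG, log2 2.52, edgeR adjusted p = 1.47e-05). Fabp3, the heart-type form, fell (3.05 CPM in NSPC cultures, 32.4 CPM in whole DG, log2 -3.42, edgeR adjusted p = 0.000462), as did Fabp4, so that 1 of 3 rose and 2 fell.

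Among surface proteins, Cd24a, a lipid-anchored glycoprotein also found on neuroblasts, was at 103, 152, 91.1 and 111 CPM in NSPC cultures F1, F2, M1 and M2 and at 18.3 and 8.82 CPM in whole DG F1 and M2. The lowest culture was well above the higher tissue library, and the 2 tissue libraries differed from each other more than for other members. On the log2 scale Cd24a differed by 3.08 (SE 0.35, edgeR adjusted p = 7.45e-05). It was 3.70 without whole DG F1 and 2.64 without whole DG M2.

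Cd9, a tetraspanin that organizes membrane proteins into domains and is abundant on extracellular vesicles, was at 189, 159, 204 and 93.2 CPM in NSPC cultures F1, F2, M1 and M2 and at 28.9 and 30.7 CPM in whole DG F1 and M2. M2 was the lowest culture and still above both tissue libraries. Cd9 differed on the log2 scale by 2.43 (SE 0.32, edgeR adjusted p = 0.000165), or 5.40-fold. Gene models on the opposite strand overlap Cd9: Gm26728, with 149 to 295 counts in cultures and 81 in each tissue library, and Gm28809, with 6 to 25 counts in cultures and 0 to 3 in the tissue. Whether the authors counted by strand is not stated in the labels or files. Among 9 other tetraspanins and their partners 5 rose and 4 fell, with a median log2 difference of 1.59. Cd81, a tetraspanin that associates with Cd9, rose (1572 CPM in NSPC cultures, 174 CPM in whole DG, log2 3.17, edgeR adjusted p = 1.19e-06), and Tspan3 rose as well (765 CPM in NSPC cultures, 254 CPM in whole DG, log2 1.59, edgeR adjusted p = 2.00e-05).

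Tnfrsf19, also called Troy, is a receptor of the tumour necrosis factor family found on stem cells and astrocytes. It was at 119, 81.1, 132 and 111 CPM in NSPC cultures F1, F2, M1 and M2 and at 70.2 and 74.6 CPM in whole DG F1 and M2. The groups did not overlap, but F2 came close to the tissue. For Tnfrsf19 the log2 difference was 0.61 (SE 0.20, edgeR adjusted p = 0.0195), or 1.53-fold. The call was lost without whole DG F1 (adjusted p = 0.112) and without whole DG M2 (adjusted p = 0.0783).

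Lpar1 is a receptor for lysophosphatidic acid whose reporter marks dentate stem cells in mice. It had 14, 5, 11 and 28 counts in NSPC cultures F1, F2, M1 and M2 and 136 and 128 counts in whole DG F1 and M2. These were 0.43 to 2.73 CPM in the cultures against 8.78 and 7.79 CPM in whole DG, with no overlap. The log2 difference was -2.63 (SE 0.53, edgeR adjusted p = 0.00196). The value was -3.21 without culture M2, which held the highest level among the cultures. Of 9 other receptors and enzymes of this pathway 6 were tested, with 2 higher, 2 lower and 2 not called. Plpp1, a phosphatase that degrades lysophosphatidic acid, rose (60.6 CPM in NSPC cultures, 20.4 CPM in whole DG, log2 1.57, edgeR adjusted p = 4.80e-05). Plpp3, an enzyme of the same kind, had 206 CPM in NSPC cultures and 248 CPM in whole DG and was not called (log2 -0.27, edgeR adjusted p = 0.171). The other called members, chosen for mention after their values were seen, were the receptor Lpar6, which was higher (49.3 CPM in NSPC cultures, 2.32 CPM in whole DG, log2 4.41), Enpp2, the enzyme that makes lysophosphatidic acid, which was lower (4.28 CPM in NSPC cultures, 55.5 CPM in whole DG, log2 -3.70), and Plpp2, which was lower (log2 -1.40).

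Prom1, or CD133, is a membrane protein of apical protrusions and primary cilia used to sort stem cells. It had 0, 44, 3 and 3 counts in NSPC cultures F1, F2, M1 and M2 and 157 and 176 counts in whole DG F1 and M2. A count of 0 in F1 allows up to 0.248 CPM at 3 counts, counting error only. All but culture F2 (3.81 CPM) were at or near 0, and all were below the tissue at 10.1 and 10.7 CPM. The log2 difference was -3.22 (SE 1.03, edgeR adjusted p = 0.0195), and it was -5.74 without F2 (adjusted p = 4.44e-05). The call was lost without whole DG F1 (adjusted p = 0.0750), without whole DG M2 (0.0822), with DESeq2 (0.0922) and with no filter on low counts (0.121).

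Hopx is an atypical homeodomain protein that marks quiescent radial glia-like cells. It was at 8.26, 7.80, 11.0 and 3.51 CPM in NSPC cultures F1, F2, M1 and M2 and at 64.0 and 65.4 CPM in whole DG F1 and M2. The 2 tissue libraries were nearly equal, and every culture was far below them. Hopx differed on the log2 scale by -3.08 (SE 0.33, edgeR adjusted p = 5.49e-05), or 8.45-fold lower. The opposite-strand transcript Hopxos, which overlaps Hopx, had 32, 36, 38 and 10 counts in NSPC cultures F1, F2, M1 and M2 and 332 and 418 counts in whole DG F1 and M2. Its counts were lower in cultures too, and without strand the reads of the pair cannot be told apart.

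Nr2e1, or Tlx, is an orphan nuclear receptor that represses transcription and keeps adult neural stem cells undifferentiated. It was at 14.9, 15.8, 13.8 and 14.05 CPM in NSPC cultures F1, F2, M1 and M2 and at 15.1 and 16.2 CPM in whole DG F1 and M2. The groups overlapped, and the cultures were within a coefficient of variation of 6.22%. For Nr2e1 the log2 difference was -0.10 (SE 0.17, edgeR adjusted p = 0.620), with a range of -0.20 to 0.17 over 17 alternatives. It turned positive under upper quartile scaling (0.08) and with trends of gene length and GC content removed (0.17), and was called in none of the 17. Of 4 genes of Nr2e1 corepressors 3 fell and 1 was not called. Atn1, which encodes atrophin, fell (8.27 CPM in NSPC cultures, 190 CPM in whole DG, log2 -4.53, edgeR adjusted p = 1.39e-07), while Hdac5, a histone deacetylase, had 106 CPM in NSPC cultures and 135 CPM in whole DG (log2 -0.35, edgeR adjusted p = 0.0825).

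Msi1 and Msi2 encode the Musashi RNA-binding proteins, which repress translation of targets such as Numb. Msi1 had 9, 23, 7 and 16 counts in NSPC cultures F1, F2, M1 and M2 (0.67 to 1.99 CPM) and 285 and 368 counts in whole DG F1 and M2 (18.4 and 22.4 CPM). The cultures were near the bottom of the scale and did not overlap the tissue. Msi1 differed by a log2 of -4.03 (SE 0.39, edgeR adjusted p = 2.84e-05), or 16.3-fold lower, and it was -2.78 with trends of gene length and GC content removed. Msi2 was at 39.1, 39.3, 46.3 and 33.2 CPM in NSPC cultures F1, F2, M1 and M2 and at 56.5 and 48.8 CPM in whole DG F1 and M2. The highest culture lay just below the lower tissue library. The log2 difference was -0.42 (SE 0.16, edgeR adjusted p = 0.0442), but the call was kept under only 5 of 17 alternatives and reversed to 0.50 (adjusted p = 0.00957) with trends of gene length and GC content removed. Both Musashi targets tested fell: Numb to 16.2 CPM in NSPC cultures against 25.7 CPM in whole DG (log2 -0.67, edgeR adjusted p = 0.00534), and Numbl to 4.50 CPM in NSPC cultures against 137 CPM in whole DG (log2 -4.94, edgeR adjusted p = 1.60e-06).

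**Figure D2:**
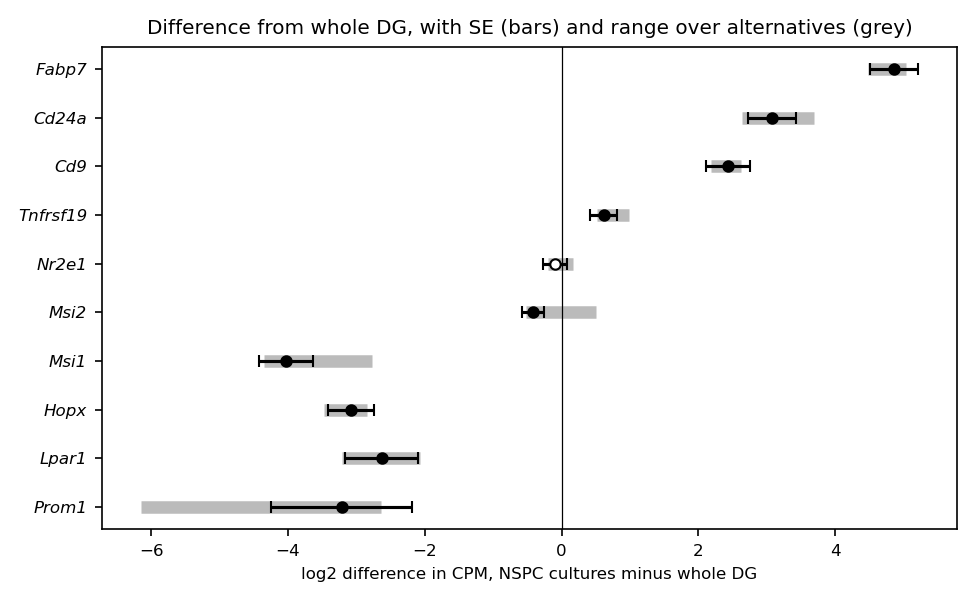
Log2 difference of each marker between NSPC cultures and whole DG, positive where NSPC cultures were higher. Points are edgeR estimates with SE, open where adjusted p was 0.05 or above, and grey bands span the 17 alternatives. The bands of Fabp7 (4.49 to 5.04) and Hopx (-3.47 to -2.84) are narrow, that of Prom1 (-6.15 to -2.64) is wide, and those of Msi2 (-0.52 to 0.50) and Nr2e1 (-0.20 to 0.17) span 0.

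Compared between genes, as mean CPM per kb of exon, the order of the markers differed between the groups. In NSPC cultures Fabp7 was first at 924, followed by Cd9 (78.8), Cd24a (44.4), Tnfrsf19 (23.4), Hopx (5.04), Nr2e1 (3.94), Msi2 (3.79), Lpar1 (0.313), Msi1 (0.214) and Prom1 (0.153 CPM per kb). The culture ranges of Cd9 and Cd24a overlapped, as did those of Hopx, Nr2e1 and Msi2, and those of Lpar1, Msi1 and Prom1. In whole DG Hopx was first at 42.7 CPM per kb, followed by Fabp7 (31.7), Tnfrsf19 (15.3), Cd9 (14.6), Cd24a (5.26), Msi2 (5.06), Nr2e1 (4.22), Msi1 (3.52), Lpar1 (1.93) and Prom1 (1.45 CPM per kb). There the values of Tnfrsf19 and Cd9 overlapped, and those of Cd24a overlapped those of Msi2, Nr2e1 and Msi1.

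Ratios of members within a library do not depend on library scaling. The ratio of Fabp7 to Hopx per kb was 138, 270, 109 and 329 in NSPC cultures F1, F2, M1 and M2, against 0.685 and 0.799 in whole DG F1 and M2. The ratio of Msi2 to Msi1 per kb was 29.3, 11.0, 38.6 and 11.8 in NSPC cultures F1, F2, M1 and M2, against 1.71 and 1.22 in whole DG F1 and M2. Fabp7 made up 81.5% to 89.2% of the summed level per kb of all 10 members in cultures, against 23.4% and 26.9% in whole DG. These ratios restate the members' own values on a scale without library size and are no separate result.

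Of 26 other genes of radial glia-like and neural stem cells 24 were tested, with 12 higher, 10 lower and 2 not called in NSPC cultures, and a median log2 difference of 0.57, beside 35.6% of all tested genes higher and 41.7% lower. Nes, an intermediate filament of progenitors, rose to 1216 CPM in NSPC cultures against 9.74 CPM in whole DG (log2 6.96, edgeR adjusted p = 2.11e-07). Slc1a3, the glutamate transporter GLAST, rose to 1968 CPM in NSPC cultures against 636 CPM in whole DG (log2 1.63, edgeR adjusted p = 0.000345), and Tnc, an extracellular matrix glycoprotein, to 1636 CPM in NSPC cultures against 12.9 CPM in whole DG (log2 6.99, edgeR adjusted p = 0.000148). Gfap, a filament protein that astrocytes share with quiescent stem cells, fell to 2.21 CPM in NSPC cultures against 425 CPM in whole DG (log2 -7.58, edgeR adjusted p = 3.98e-06). Sox2, a transcription factor of stem cells that astrocytes share, fell to 6.11 CPM in NSPC cultures against 36.3 CPM in whole DG (log2 -2.57, edgeR adjusted p = 8.89e-06). In the single-cell library Sox2 had 168 UMIs per 1000000 UMIs against 2.97 CPM per kb in the bulk cultures, a ratio of 56.5, against 35.3 or less for the 10 members. Sox2 overlaps the annotated gene Sox2ot on the same strand, and how reads shared between them were counted is not stated.

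Between female and male cultures, 0 of the 9 members that could be tested were called, beside 0.0264% of 15140 genes (4 genes) with edgeR. None of the 9 had an unadjusted p under 0.05, and DESeq2 called none of the 7 members to which it gave an adjusted p. With all 4 cultures Lpar1 had the largest difference, with 0.795 CPM in female and 1.89 CPM in male cultures (log2 -1.24, edgeR adjusted p = 0.843), a value that ran from -2.11 without culture F1 to -0.40 without culture M2, and Fabp7 had 1338 CPM in female and 971 CPM in male cultures (log2 0.45, edgeR adjusted p = 0.849), a difference that was -0.05 without culture F2. With 2 cultures of each sex, these p-values do not show that the sexes were alike. Prom1 was too low to be tested.

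The single-cell library held 14912 cells in 6 clusters numbered 0 to 5 by the authors, with 2001 to 8531 UMIs per cell. It is 1 library whose 3 cultures cannot be told apart, so it allows no test between conditions, and the intervals given here cover counting error only. The clusters were built from these same cells and genes, and their differences are a description.

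Fabp7 was detected in 14907 of 14912 cells (99.97%) and ranked 17th of all genes with 4612 UPM (UMIs of the gene per 1000000 UMIs of the library). Cd9 had 156 UPM and a UMI in 45.5% of cells, Msi2 93.9 and 31.6%, Cd24a 85.0 and 28.1%, and Tnfrsf19 20.8 and 8.32%. These 5 had 1000 or more UMIs. Msi1 (7.56 UPM, 463 cells), Hopx (6.78 UPM, 2.73% of cells) and Nr2e1 (5.85 UPM, 2.39% of cells) were seen in few cells. Lpar1 was in 18 cells (0.121%, exact 95% interval 0.0716% to 0.191%) and Prom1 in 5 cells (0.0335%, 0.0109% to 0.0782%).

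No cell type that should lack these genes was in the library, so genes of other cell types were set beside them. The neuronal gene Camk2a had a UMI in 0.288% of cells, the synaptic gene Snap25 in 0.751%, the microglial gene P2ry12 in 0.241% and the pericyte gene Rgs5 in 0.0738%. The shares of Lpar1 and Prom1 were within that range or below it, and whether they are background was not tested. Those of Hopx, Nr2e1 and Msi1 were above the shares of these 4 genes. They were below those of Prox1, a granule neuron gene (5.23% of cells, and 30.5 CPM in the bulk cultures), and Foxj1, an ependymal gene (5.72% of cells). Foxj1 was higher in NSPC cultures (12.5 CPM) than in whole DG (3.85 CPM, log2 1.70, edgeR adjusted p = 0.00138), so its share cannot be read as background. The genes named here do not span the marker lists. The highest share was 14.9% among astrocyte, 15.5% among oligodendrocyte, 62.5% among neuroblast and 95.3% among oligodendrocyte precursor markers. It was 0.268% or less among endothelial, microglia, and mural and fibroblast markers. How much of the level of Hopx, Nr2e1 and Msi1 is background was not tested. Gfap was in 0.215% of cells and Sox2 in 47.7%.

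The single-cell levels followed the bulk order of the cultures in part. Fabp7, Cd9, Cd24a and Tnfrsf19 kept the same order among themselves in both, while Msi2 ranked 3rd of 10 in single cells against 7th in bulk per kb, and Msi1 6th against 9th. UPM over bulk CPM per kb were 35.3 for Msi1 and 24.8 for Msi2, 4.99 for Fabp7 and 0.52 to 1.98 for the other 7 members. UMIs are counted once per molecule near the 3′ end and need no length correction, while the bulk protocol reads whole transcripts. The part of this difference in the 2 high ratios was not tested.

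**Figure D3:**
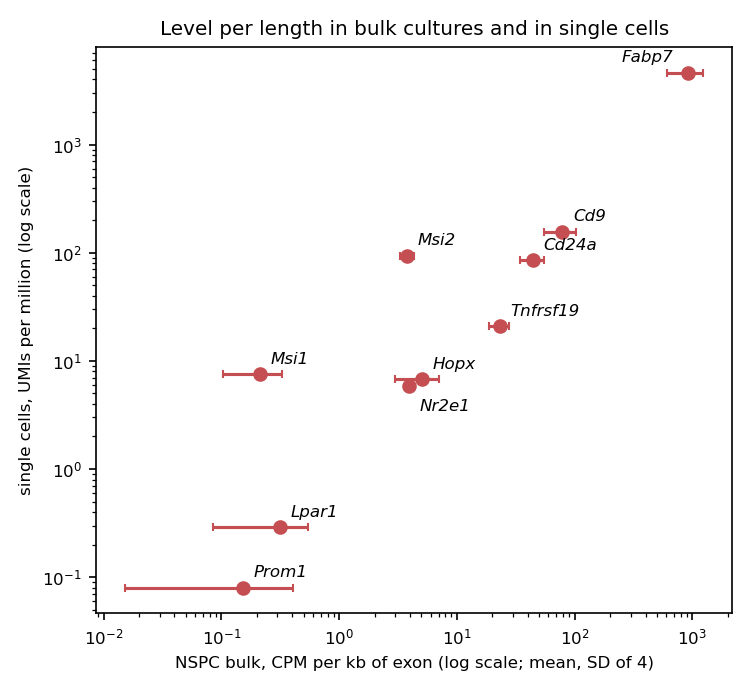
Level of each marker in the bulk NSPC cultures (x axis, CPM per kb of exon, log scale, mean and SD of 4 libraries) and in the single-cell library (y axis, UPM, log scale). Fabp7 is highest in both at 924 CPM per kb and 4612 UPM, and Msi1 and Msi2 lie above the other members at a like bulk level.

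Across clusters the members with 1000 or more UMIs varied by 1.28 to 1.75 times. The highest cluster held 1.28 times the level of the lowest for Msi2, 1.29 for Fabp7, 1.30 for Cd9, 1.34 for Cd24a and 1.75 for Tnfrsf19. Over all 6150 genes with 1000 or more UMIs the median of this ratio was 1.39, with 1.14 at the 5th and 3.05 at the 95th percentile. Fabp7, Cd9, Msi2 and Cd24a thus lay below the median gene and Tnfrsf19 above it.

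Fabp7 had 5121 UPM in cluster 0 (5085 to 5157, exact 95% Poisson interval), followed by 4882 in cluster 3. Clusters 4, 2 and 1 followed with 4433 to 4408 and did not differ from each other beyond their intervals, and cluster 5 was lowest with 3956 (3899 to 4014). Cd9 was highest in cluster 0 (178 UPM, 172 to 185) and lowest in cluster 2 (137, 131 to 143), and Msi2 in the same 2 clusters (108, 103 to 114, and 84.7, 80.2 to 89.4). For both, cluster 0 was apart from the next and no other neighbours were. Cd24a differed in order: it was highest in cluster 1 (98.5 UPM, 92.9 to 104) and lowest in cluster 4 (73.8, 67.7 to 80.2). Tnfrsf19 lay between 19.5 and 23.4 UPM in clusters 0 to 4, with overlapping intervals, and at 13.3 (10.2 to 17.1) in cluster 5. The interval of cluster 5 overlapped those of cluster 1 (17.1 to 22.2) and cluster 4 (16.8 to 23.4) at their ends.

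The 3 sparse members had wider intervals. Hopx was at 10.1 UPM in cluster 5 (7.37 to 13.4) and between 7.28 and 7.81 in clusters 0, 2 and 3, while clusters 1 (4.44, 3.31 to 5.82) and 4 (4.17, 2.84 to 5.93) were apart from these. Nr2e1 was highest in cluster 2 (8.00 UPM, 6.65 to 9.54) and lowest in cluster 5 (3.50, 2.00 to 5.69), with no 2 neighbours apart. Msi1 was highest in cluster 3 (9.78 UPM, 7.74 to 12.2) and lowest in cluster 2 (6.00, 4.84 to 7.35). Lpar1 with 18 UMIs and Prom1 with 5 UMIs were too few to order the clusters. Cluster depth differed, with median UMIs per cell of 3431 in cluster 1 to 5270.5 in cluster 4, and so did the summed level of the 12 cell division genes, which was 263 UPM in cluster 5, 322 in cluster 0, 930 in cluster 3, 1534 in cluster 1, 2820 in cluster 2 and 5115 in cluster 4. With every cell thinned to 2000 UMIs, 4 of the 5 members with 1000 or more UMIs kept their highest cluster, and Tnfrsf19 did not. Beyond this, the part of depth in these patterns was not tested, nor was that of cell division.

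**Figure D4:**
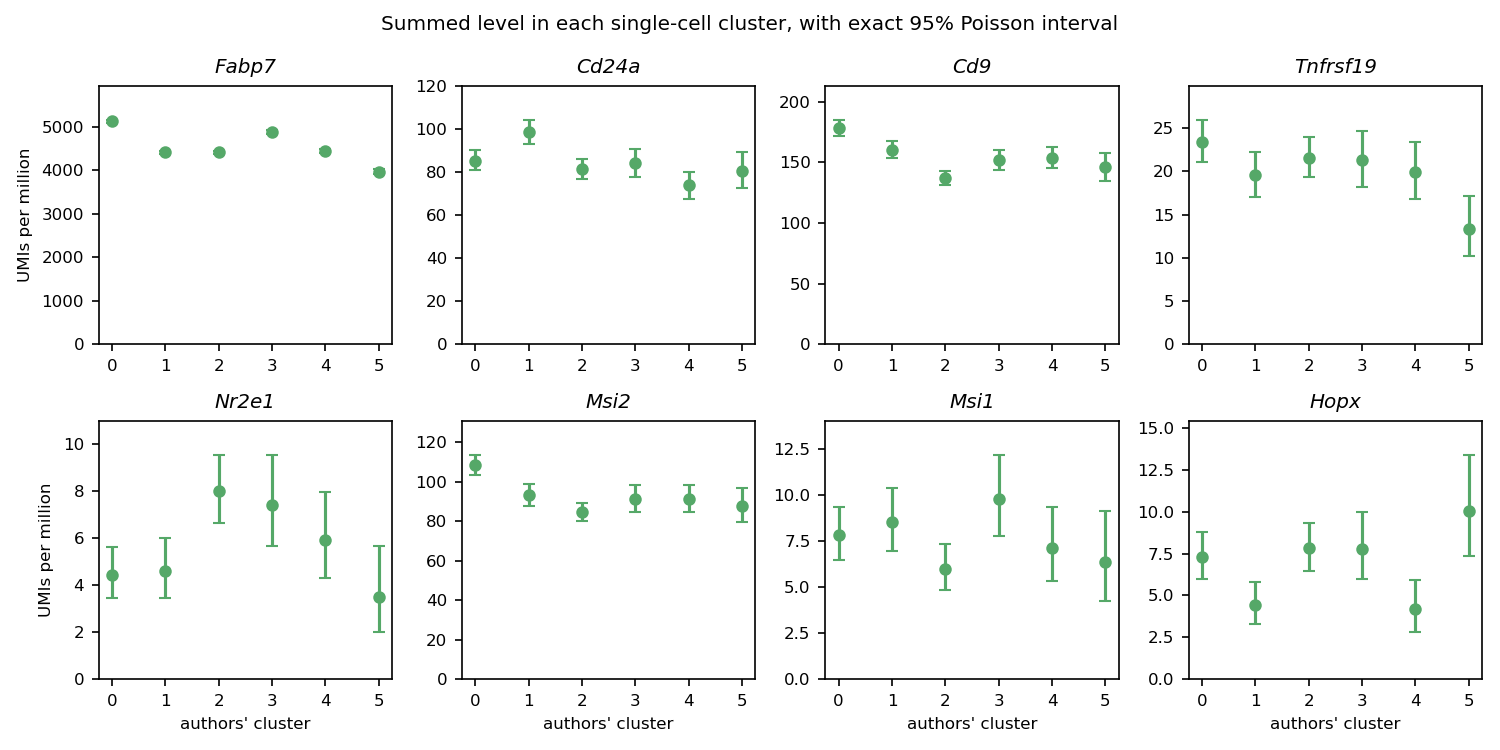
Summed level of the 8 members other than Lpar1 and Prom1 in each cluster, in UPM on linear axes from 0, with exact 95% Poisson intervals (counting error only). Cluster 0 was highest for Fabp7 (5121), Cd9 (178), Msi2 (108) and Tnfrsf19 (23.4), cluster 1 for Cd24a (98.5), cluster 2 for Nr2e1 (8.00), cluster 3 for Msi1 (9.78) and cluster 5 for Hopx (10.1).

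Between cells, Fabp7 spanned a wide range. Its median was 42.9 UMIs per 10000 UMIs of the cell, with 18.1 at the 5th and 84.4 at the 95th percentile and a highest value of 204. Cluster medians were 47.0, 41.8, 41.2, 44.9, 41.7 and 36.9 in clusters 0 to 5. With a median of 17 Fabp7 UMIs per cell, counting error takes part in the spread between cells, and its share was not tested. With every cell thinned to 2000 UMIs, 7104 cells (47.6%) held a UMI of 1 member, 5809 (39.0%) of 2 members, 1769 (11.9%) of 3 and 199 of 4, while 10 held 5 and 21 held none. Fabp7 alone kept a UMI in 99.7% of thinned cells.

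**Figure D5:**
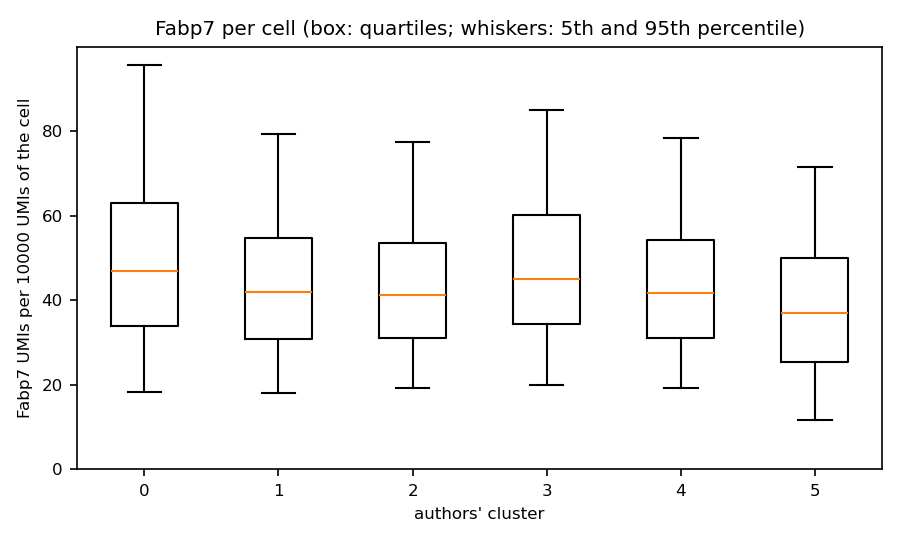
Fabp7 per cell in clusters 0 to 5, in UMIs per 10000 UMIs of the cell on a linear axis from 0, with the median, quartiles (box) and 5th and 95th percentiles (whiskers). The boxes overlap in all 6 clusters, with medians of 36.9 in cluster 5 to 47.0 in cluster 0.

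For the 5 members with 1000 or more UMIs, the genes with the most similar level over the 6 clusters were sought among 6150 genes by Pearson's r on the log2 scale. These are a description over 6 points that share a library and depth, at which many genes reach a high r. Tnfrsf19 was most like Aard (r = 0.998), Serinc5 (0.995) and Lmo1 (0.991), and 60 genes had r above 0.95 with it. Fabp7 was most like Rab26 (0.993), Dag1 (0.993) and Ndufs3 (0.989), with 57 genes above 0.95. Msi2 was most like Lyrm2 (0.992), Ndufb6 (0.988) and Pls3 (0.987), and Cd9 like Pls3 (0.986), Fam207a (0.984) and Cavin1 (0.984), with 23 and 22 genes above 0.95. Cd24a was most like Fxr2 (0.980), Eif3e (0.962) and Ccdc124 (0.958), and only 4 genes were above 0.95.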

How the data were processed

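RNA was measured in bulk in 4 NSPC cultures and 2 whole DG libraries and in 1 single-cell library, grouped from the labels. The bulk table holds the authors' raw counts, 1 per gene and library. Tools listed in the submitters' processing notes were CASAVA 1.8.2, HISAT2 2.0.6, Subread and featureCounts, with GRCh38 as the build although the symbols are mouse; how strand and shared reads were treated is not stated there. The deposited single-cell values are the natural log of 1 plus UMIs per 10000, with a cluster number per cell. They came from Cell Ranger 3.1.0 and Seurat 3.1.0 per the submitters' processing notes, and from other versions per the labels' protocol. UMIs were recovered from these values, and 100% came out whole within 0.01 UMI. No source states the cell filter or any removal of doublets, and no doublet caller was run here.

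In R 4.3.3, edgeR 4.0.16 was fitted to the counts (robust quasi-likelihood test, TMM scaling, filterByExpr at its defaults, Benjamini-Hochberg adjustment over all genes tested, threshold 0.05) on 6 libraries with group as the only term, and for sex on the 4 cultures. CPM use TMM library sizes. Alternatives included DESeq2 1.42.0. Symbols were matched to GENCODE M21 on GRCm38 for exon lengths (47674 of 50600, or 94.2%), and promoters are from RefSeq, GRCm38.p6. The fits were tested on simulated counts in which 200 genes were changed. Far more genes were called between NSPC cultures and whole DG, so scaling at that share was not tested. All 10 members were named, and from each other list the 2 genes with the highest mean CPM, plus Sox2, Nes, Gfap and Slc1a3. Members, lists and rule were chosen with earlier results of these data known. Cultures are separate per the labels; p-values therefore reflect the spread among cultures and among 2 animals.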

Additional observations from a re-analysis of the deposited data

Results flagged for a closer look

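In culture F2, Fabp7 was at 1735 CPM, so far above the other 3 NSPC cultures that the gap to the nearest made up 0.937 of the range of the 4, over Dixon's 95% critical value for 4 samples. Prom1 was at 3.81 CPM in the same culture, with a gap of 0.923 of the range. Both tests would mark about 1 in 20 groups of 4 by chance, and 10 members were examined. Without F2 the log2 difference between NSPC cultures and whole DG was 4.61 for Fabp7 and -5.74 for Prom1, against 4.86 and -3.22 with it.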

How the results depend on the processing

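Over 17 alternatives the direction and call of Hopx, Lpar1, Cd9, Msi1, Fabp7, Cd24a and Nr2e1 (not called) were kept, apart from the sign of Nr2e1. Of 170 values for single members 151 kept their side of the threshold (with the uncalled Nr2e1 turned to 0.08 and 0.17 in 2 settings), 18 were no longer called and 1 reversed, Msi2 at 0.50 with trends of gene length and GC content removed. That setting moved the median of all genes by 0.42, upper quartile scaling by 0.18 and DESeq2's size factors by -0.10 on the log2 scale; relative to the median, Msi2 was at -0.29, -0.29 and -0.29 under TMM, upper quartile and DESeq2 scaling and 0.21 with the trends removed. With 1 library left out, 6 to 9 members were called, 6 without whole DG F1 and 6 without whole DG M2, where the lone library is assumed to vary like the cultures, and 11815 to 14038 genes. Genes that differed between female and male cultures numbered 4, but 273 with no filter on low counts, 60 with DESeq2, and 3 to 81 with 1 culture left out (81 without F1, 13 without F2). Replicate names are shared by F1 and M2 only, and same-named libraries deviated together with r of 0.0445 and 0.0631. The deviations of 2 whole DG libraries mirror each other, so this check cannot decide whether the names pair the samples. With a replicate block on these 4 libraries 13677 genes and 9 members were called, against 14288 and 9 without the block. In single cells 167 of 180 cluster values moved by less than their interval; thinned to 2000 UMIs, Hopx fell to 2.88 and 2.45 UPM in clusters 1 and 4, and Tnfrsf19 was highest in cluster 4 (22.8). Depth limits Lpar1, Msi1 and Prom1, at 5 to 28, 7 to 23 and 0 to 44 counts per culture.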
